A study of Mus musculus with 5 samples.

Results

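ATP-binding cassette (ABC) transporters were followed through the transcripts of mouse leukaemia cells labelled Plcg1 -/- or Plcg1 +/+. The members were all genes of the deposited normalized table whose symbol has the form Abca to Abcg plus a number, with or without a letter, and there were 48 of them among 27526 listed genes. RNA came from Kit-positive leukaemia stem cells of an AML1-ETO9a mouse model, in which a shortened form of the RUNX1-RUNX1T1 fusion of human acute myeloid leukaemia drives the disease. There were 3 libraries labelled deleted (replicates 2, 4 and 6, conditional deletion of Plcg1) and 2 labelled wild-type (replicates 1 and 3). The labels give the AML1-ETO9a model for all 5. The product of Plcg1, phospholipase C-γ1, cleaves phosphatidylinositol bisphosphate during receptor signalling. The labels used here give no strain, age or sex of the mice, do not name the Cre line behind the deletion, and do not say whether libraries came from separate mice. The p-values therefore speak of the variation among these 5 samples alone, and that variation may be technical. Sex-linked genes, given below, set deleted 6 apart from the other libraries.

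ABC proteins couple the binding and hydrolysis of ATP to the movement of substrates across membranes, and 7 subfamilies, A to G, are told apart by sequence. Many ABCA and ABCG proteins move cholesterol and phospholipids, ABCB1 and ABCG2 pump drugs out of stem cells and leukaemia cells, ABCC proteins export conjugated and nucleotide-like compounds or regulate ion channels, and ABCD proteins bring fatty acids into peroxisomes. ABCE and ABCF proteins have the ATPase domains but no membrane part, and act on ribosomes and translation.

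Facts of the whole series limit every comparison below. Gene counts per library ran from 52560713 to 57133771 in the libraries labelled deleted and from 37306507 to 51682298 in those labelled wild-type. Plcg1 itself was not lower under the deleted label, at 53.0, 26.9 and 37.1 CPM in deleted 2, 4 and 6 and 22.1 and 34.0 CPM in wild-type 1 and 3, where CPM are read counts per 1e6 of a scaled library size. Total counts per gene can include exons outside the deleted part, so they do not check the deletion, and all directions here refer to the labels. Runx1t1, the gene of the ETO part of the fusion, had 6035, 3921 and 598 counts in the deleted libraries and 5 and 13 in the wild-type ones. The labelled genotype and the amount of Runx1t1 transcript therefore cannot be told apart. The labels give AML1-ETO9a for every library, and the wild-type counts do not show its ETO part. Deleted 6 stood apart from the other 4 libraries: Kit was at 3.08 CPM and Mki67 at 7.76 CPM there, against 26.8 to 672 CPM and 165 to 272 CPM elsewhere. Xist had 5375 counts in deleted 6, against at most 3 elsewhere. Ddx3y, on the Y chromosome, had 12 counts there, against 2811 to 4893 elsewhere. Xist and Ddx3y thus point to female cells in deleted 6 and male cells in the other 4 libraries. The main results are therefore given with and without deleted 6. In bulk RNA, fewer cells of a type and less RNA per cell cannot be told apart.

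No ABC transporter passed the genome-wide test across all 5 libraries, and 9 passed once deleted 6 was left out. Of the 48 members, 37 passed the filter on low counts. edgeR's quasi-likelihood test called 0 of them at an adjusted p under 0.05, as it called 0% of all 16120 tested genes in either direction. With an unadjusted p below 0.05 came 8 members that were higher (Abca5, Abca6, Abca8b, Abcb1a, Abcb1b, Abcb4, Abcc1 and Abcc5) and 1 that was lower (Abcc8), that is 21.6% and 2.70% of those tested, where all genes gave 9.44% and 5.42%. DESeq2 called 5 higher and 1 lower of the 40 members to which it gave an adjusted p (all genes 4.53% and 2.14%). With quality weights for each library, limma-voom called 7 higher and 1 lower of 37 (all genes 7.63% and 5.87%). The weight was 0.120 for deleted 6 and 0.895 to 3.66 for the other libraries, so that fit rested little on deleted 6. Without deleted 6, edgeR called 7 of 36 members higher (Abca5, Abca6, Abcb1a, Abcc1, Abcc5, Abcg1 and Abcg2) and 2 lower (Abca13 and Abcc8), or 19.4% and 5.56%, where all 15787 genes gave 7.89% and 5.07%. Sequencing lane 4, read from the file names, was the only one holding both labels, and there 2 members (Abca5 and Abcb1a) were called higher and Abcc8 lower, where all genes gave 1.26% and 0.779%; that fit takes the single wild-type library to vary as much as the 2 deleted ones do.

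As a family the members did not shift one way. With deleted set over wild-type, their median log2 fold change was 0.041 across all 5 libraries and -0.075 without deleted 6, beside 0.010 and -0.0053 over all genes tested. Of the 37 tested members, 12 had all 3 deleted values over both wild-type values and 9 had all 3 under both, or 32.4% and 24.3%, while all tested genes gave 22.4% and 23.7%. Some members passed the filter mainly through the group in which they were high, so these shares only describe the family. Abca6 and Abcb1a did so through the deleted libraries (Abcb1a had 4 and 21 counts in wild-type 1 and 3). Abcc8 did so through the wild-type libraries, with 1, 0 and 18 counts in deleted 2, 4 and 6. For these genes the filter itself favoured a difference between the groups. The plots of levels and of fold changes show 35 of the tested members.

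**Figure D1:**
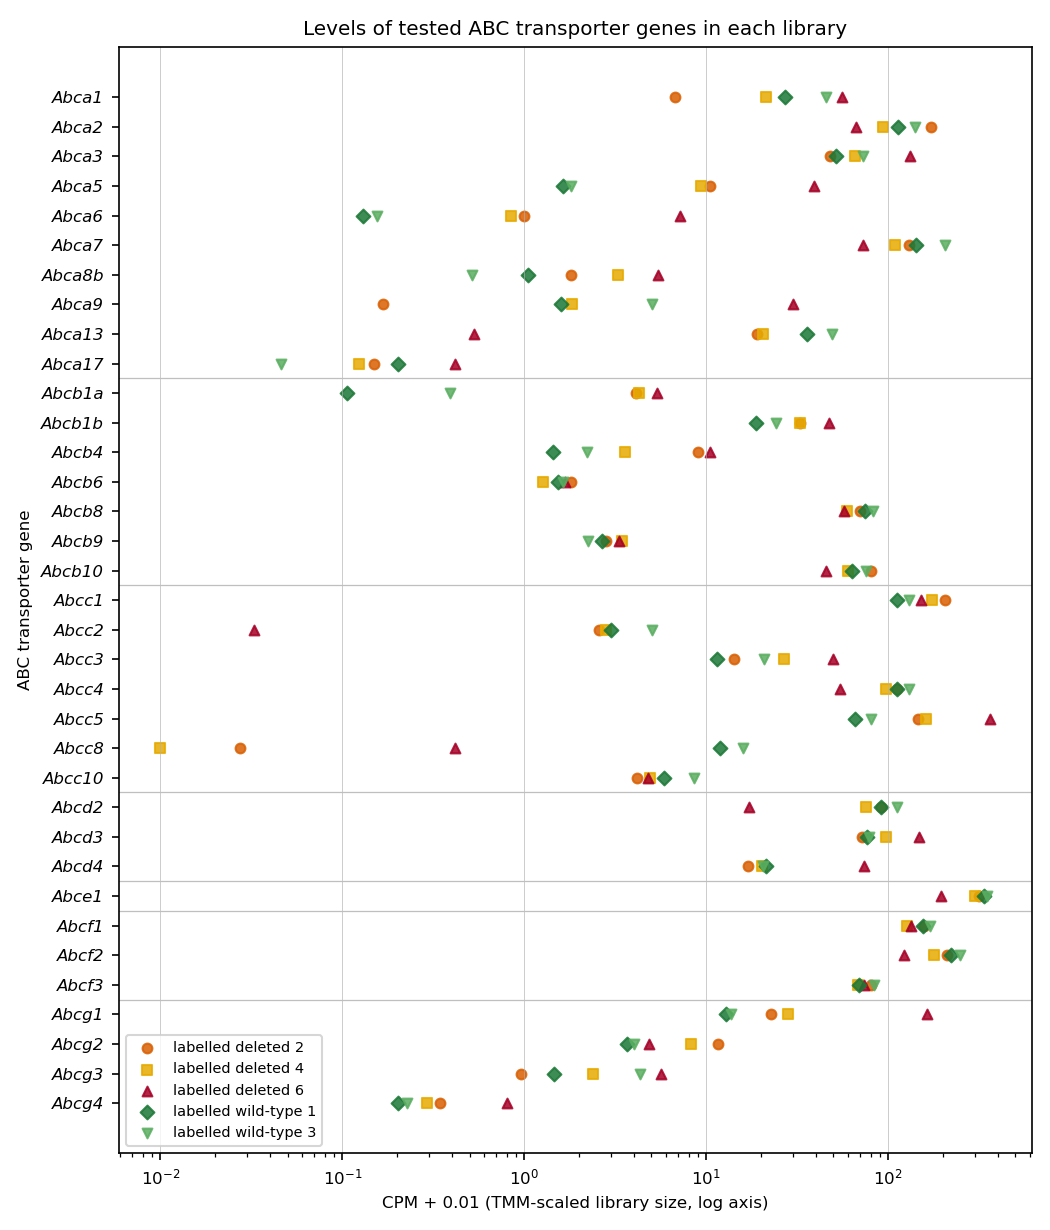
Each row is 1 of 35 tested ABC transporter genes, grouped by subfamily, and each point is its level in 1 library (CPM + 0.01, log axis). The libraries labelled deleted sit to the right of both wild-type libraries for Abca5, Abca6, Abcb1a and Abcc5 and far to the left for Abcc8, and deleted 6 is the rightmost point in 17 rows.

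**Figure D2:**
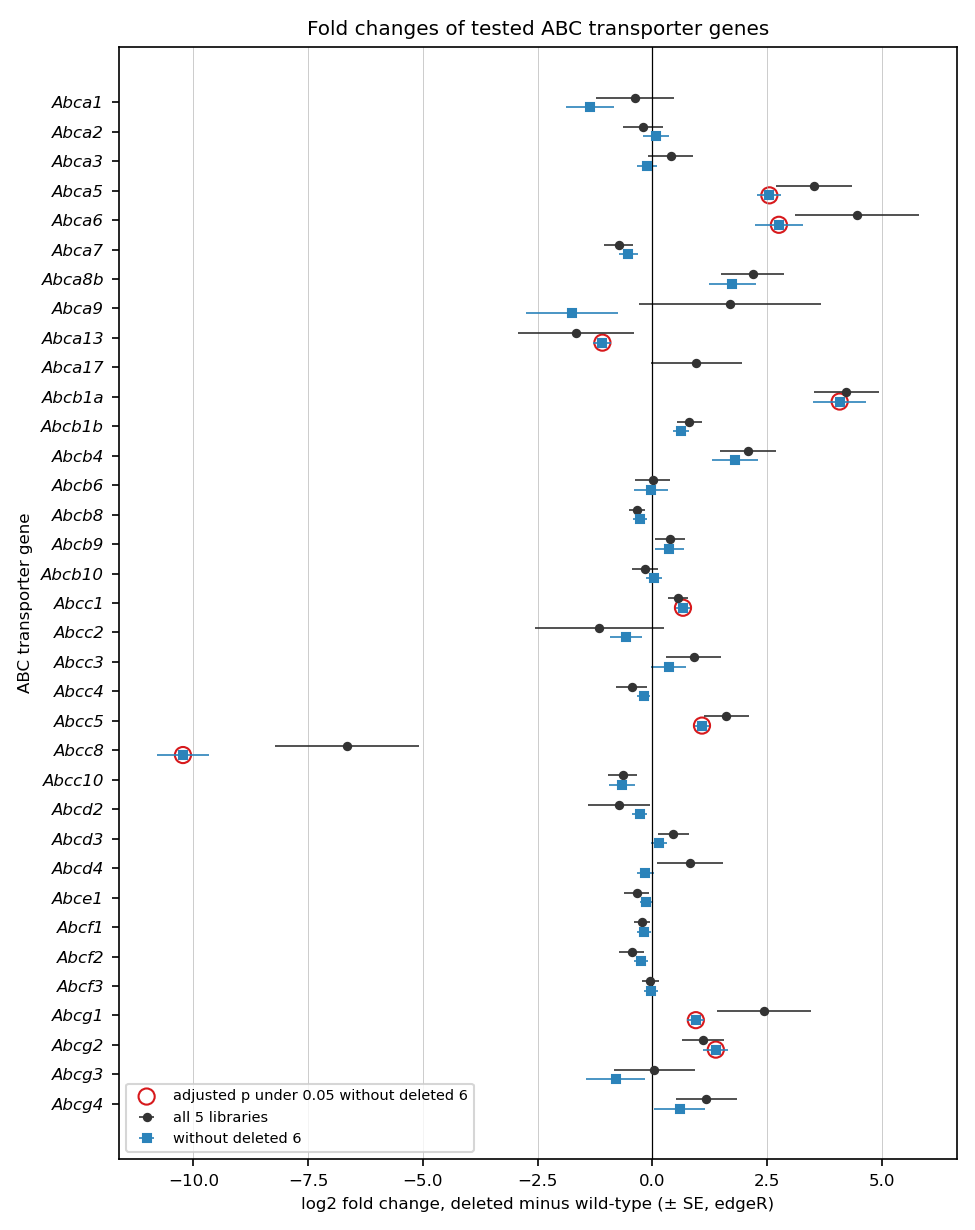
Points are log2 fold changes, deleted minus wild-type, with SE from edgeR, for all 5 libraries and without deleted 6, and rings mark adjusted p under 0.05 without deleted 6. The 9 ringed genes are 7 to the right of 0 and 2 to the left, and the fitted size for Abcc8 rests on 1 count in deleted 2 and 4 together.

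The genes of the multidrug efflux cluster were higher in all 3 deleted libraries. Abcb1a and Abcb1b encode the mouse forms of P-glycoprotein, the pump that expels many anticancer drugs, and Abcb4 encodes a phosphatidylcholine floppase of the bile canaliculus. They lie side by side on the plus strand of mm10 chromosome 5 and span 299 kb, Abcb1a at 8660077 to 8748575, Abcb1b at 8798147 to 8866315 and Abcb4 at 8893717 to 8959231. Abcb1a stood at 4.10, 4.25 and 5.36 CPM in deleted 2, 4 and 6, against 0.0964 and 0.378 CPM in wild-type 1 and 3. The 3 deleted libraries lay close together, at 234, 225 and 237 counts, and well above the wild-type ones, at 4 and 21 counts. The log2 fold change of Abcb1a was 4.23 ± 0.72 (SE; adjusted p = 0.146 with edgeR) across all 5 libraries and 4.08 ± 0.58 (adjusted p = 0.00777) without deleted 6, and 3.47 in lane 4 alone (adjusted p = 0.0487).

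Its neighbours moved by less. Abcb1b stood at 32.8, 32.9 and 47.4 CPM in deleted 2, 4 and 6, against 18.8 and 24.3 CPM in wild-type 1 and 3, with a log2 fold change of 0.81 ± 0.27 (SE; adjusted p = 0.292) and, without deleted 6, 0.62 ± 0.18 (adjusted p = 0.0733). Abcb4 stood at 9.02, 3.55 and 10.5 CPM in deleted 2, 4 and 6, against 1.42 and 2.20 CPM in wild-type 1 and 3, with 2.08 ± 0.60 (adjusted p = 0.265) and 1.802 ± 0.50 (adjusted p = 0.0639). The groups did not overlap for either gene, and neither passed edgeR's test; DESeq2 called Abcb4 across all 5 libraries (adjusted p = 0.0168). Per kilobase of merged exons, Abcb1b was the more abundant P-glycoprotein transcript in every library, at 4.10, 4.12 and 5.94 CPM per kb in the deleted libraries and 2.35 and 3.04 in wild-type, while Abcb1a was at 0.748, 0.775 and 0.978 and at 0.0176 and 0.0690. Copies limit these values: of the 50-base windows of Abcb1a transcripts, 16.3% also occur in Abcb1b, and 11.1% of those of Abcb1b occur in Abcb1a, so reads from such stretches could not be assigned to 1 gene.

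The tested genes on either side of the cluster were not called. Rundc3b, on the Abcb1a side, stood at 1.21, 1.08 and 1.24 CPM in deleted 2, 4 and 6, against 0.410 and 0.703 CPM in wild-type 1 and 3, a log2 fold change of 1.07 ± 0.45 (SE; adjusted p = 0.349). Crot, which lies beyond Abcb4 and encodes the peroxisomal carnitine octanoyltransferase, stood at 61.9, 59.2 and 87.4 CPM in the deleted libraries, against 64.4 and 68.5 CPM in wild-type, a log2 fold change of 0.06 ± 0.23 (adjusted p = 0.896). The groups overlapped for Crot and not for Rundc3b. The plot of both gene clusters shows this step between Abcb4 and Crot.

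**Figure D3:**
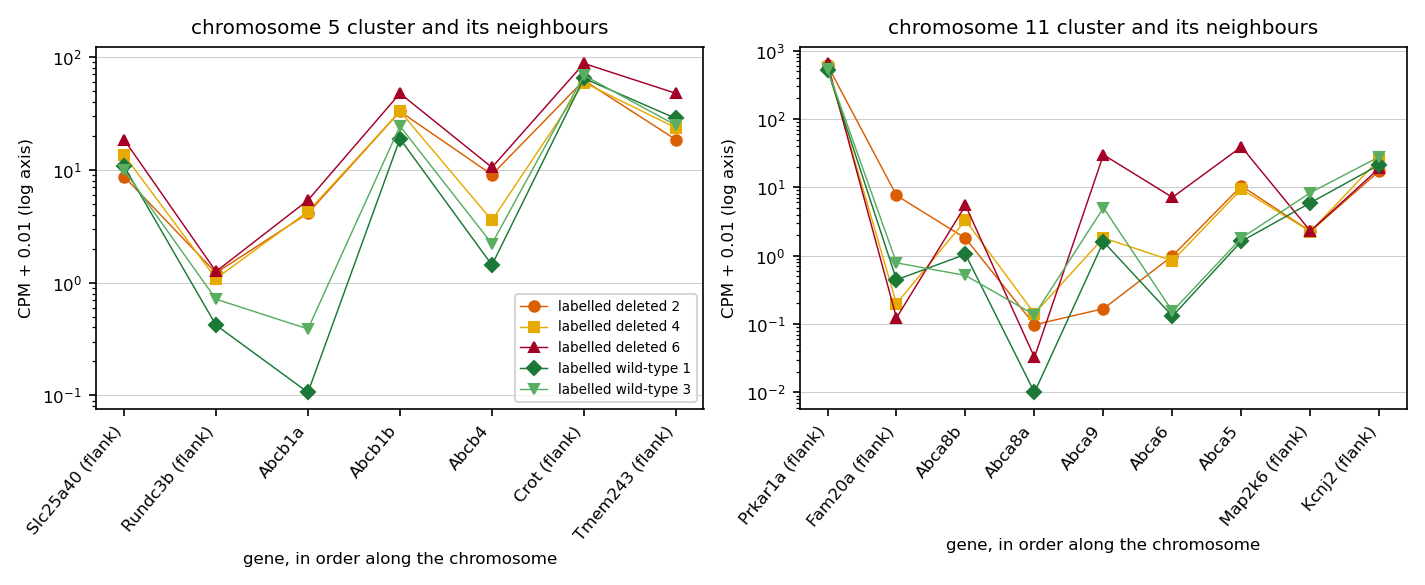
Each panel gives genes in their order along a chromosome (x) and their level in each library (CPM + 0.01, log axis); flank marks the nearest tested neighbours. On chromosome 5 the deleted libraries lie above both wild-type libraries from Rundc3b to Abcb4 and mix with them at Crot. On chromosome 11 they lie above both at the flank Prkar1a and at Abca8b, Abca6 and Abca5, and below both at the flank Map2k6.

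The promoters of Abcb1b and Abcb4 are shown because both genes lie in this cluster and had groups that did not overlap; those of Abca5 and Abca8b belong to the second such cluster, on chromosome 11, described further on. These 4 were chosen after their values were seen. Each runs from 250 bases before to 50 after the start in RefSeq (GRCm38.p6), 5′ to 3′ on the gene's strand, and capitals mark the GC box (GGGCGG) and the CCAAT box (CCAAT) on either strand, which do not overlap each other here.
Abcb1b promoter, chr5:8797897-8798196, plus strand: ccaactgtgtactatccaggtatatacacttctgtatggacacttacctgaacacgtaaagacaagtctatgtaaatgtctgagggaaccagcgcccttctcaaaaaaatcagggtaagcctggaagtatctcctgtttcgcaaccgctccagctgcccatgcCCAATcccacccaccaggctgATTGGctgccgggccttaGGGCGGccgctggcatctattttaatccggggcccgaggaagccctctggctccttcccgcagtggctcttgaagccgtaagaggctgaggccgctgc
Abcb4 promoter, chr5:8893471-8893770, plus strand: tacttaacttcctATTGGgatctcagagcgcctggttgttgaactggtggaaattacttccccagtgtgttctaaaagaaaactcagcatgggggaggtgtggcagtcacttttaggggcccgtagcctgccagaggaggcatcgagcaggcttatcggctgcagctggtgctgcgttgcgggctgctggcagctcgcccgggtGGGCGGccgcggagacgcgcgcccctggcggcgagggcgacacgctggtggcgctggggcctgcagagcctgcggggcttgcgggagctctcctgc
Abca5 promoter, chr11:110337667-110337966, minus strand: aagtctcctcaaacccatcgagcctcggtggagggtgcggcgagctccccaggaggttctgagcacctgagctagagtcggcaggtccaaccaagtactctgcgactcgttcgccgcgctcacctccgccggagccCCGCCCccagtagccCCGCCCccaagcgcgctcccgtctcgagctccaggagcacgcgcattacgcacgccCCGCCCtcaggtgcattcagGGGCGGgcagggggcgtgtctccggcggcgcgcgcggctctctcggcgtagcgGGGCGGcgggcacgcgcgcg
Abca8b promoter, chr11:109995796-109996095, minus strand: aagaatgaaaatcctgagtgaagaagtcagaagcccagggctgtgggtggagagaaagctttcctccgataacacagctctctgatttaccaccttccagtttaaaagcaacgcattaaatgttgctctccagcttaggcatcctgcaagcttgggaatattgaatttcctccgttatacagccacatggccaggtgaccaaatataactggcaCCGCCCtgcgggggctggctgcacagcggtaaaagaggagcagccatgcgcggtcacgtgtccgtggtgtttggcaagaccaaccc
A GC box was found in all 4 windows, 1 time each in Abcb1b, Abcb4 and Abca8b and 5 times in Abca5, and CCAAT boxes in Abcb1b (2) and Abcb4 (1). The 36 members found in the RefSeq set have 42 promoters, of which 50.0% hold a GC box and 35.7% a CCAAT box, beside 35.7% and 37.4% of all 32851 promoters. The RUNX letters TGTGGT, the sequence that the RUNX1 part of the fusion recognises, were searched on both strands and found in 16.7% of the members' promoters, beside 16.8% of all promoters. Abcg2 was among the genes that hold them, while none of the 4 windows shown holds those letters or the GATA letters AGATAA. In all 10 motifs were searched on both strands, and the letters to mark in capitals were chosen afterwards. The E-box CACGTG occurs in the Abca8b window and in 14.3% of the members' promoters, beside 7.15% of all promoters, and the TATA box TATAAA in none of the 4 windows, in 14.3% of the members' promoters and in 13.6% of all promoters. The cyclic AMP element TGACGTCA was found in 2 of the members' promoters, those of Abce1 and Abcg2 (4.76%, all promoters 1.79%). The AP-1 letters TGACTCA, the NF-kB consensus and the direct repeat DR4 that LXR recognises were found in 0 of the members' promoters and in 5.20%, 0.155% and 0.0152% of all promoters. GATA letters were found in 11.9% of the members' promoters and 11.2% of all promoters. A match is a description of the letters only, and no match says only that these letters are not in this window. For Abcb1a the RefSeq start lies 93.0 kb before the start of the gene in GENCODE M21, so its window is not shown.

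ABCC genes differed in both directions, and Abcc8 had the lowest fold change of the 37 tested members. Abcc8 encodes SUR1, the sulfonylurea receptor that regulates ATP-sensitive potassium channels (chromosome 7, 46104523 to 46180033, minus strand). It had 1, 0 and 18 counts in deleted 2, 4 and 6 and 494 and 880 counts in wild-type 1 and 3, that is 0.0175, 0 and 0.407 CPM against 11.9 and 15.9 CPM. Only the wild-type libraries held the transcript above 1 CPM. Its fold change on the log2 scale was -6.65 ± 1.57 (SE; adjusted p = 0.207 with edgeR) across all 5 libraries, and Abcc8 was called lower without deleted 6 (adjusted p = 0.000639), in lane 4 alone (adjusted p = 0.0326) and by DESeq2 (adjusted p = 0.000249). With 1 count in deleted 2 and 4 together against 1374 in wild-type, the level in deleted 2 and 4 was 0.0641% of wild-type, with an exact 95% counting interval of 0.00162% to 0.358%. That interval covers counting error of the pooled reads and not variation between libraries. It leaves out deleted 6, which was higher at 0.407 CPM. Kcnj11, the pore subunit that SUR1 joins in pancreatic beta cells, had 0 counts in every library, which allows up to 3 counts in each. In deleted 2, 4 and 6, 3 counts are 0.0526, 0.0566 and 0.0678 CPM. In wild-type 1 and 3, 1 count is 0.0241 and 0.0180 CPM.

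Cftr, the chloride channel of cystic fibrosis and an ABCC protein by sequence, was also low in every deleted library. The level was 0.0350, 0.227 and 0.0678 CPM in deleted 2, 4 and 6, against 4.36 and 9.17 CPM in wild-type 1 and 3, with a log2 fold change of -5.91 ± 0.89 (SE; adjusted p = 0.133), and was called lower without deleted 6 (-5.68, adjusted p = 0.00601). Every deleted library was far below both wild-type libraries. Cftr passed the filter on low counts mainly through the wild-type libraries, so the filter itself favoured a difference. Cftr is no member by the rule and comes from a short list of ABC genes with other symbols. Stem and progenitor genes low in the same libraries stand beside these values: Hoxa9 was at 0.841, 1.66 and 0.0678 CPM in deleted 2, 4 and 6, against 145 and 128 CPM in wild-type 1 and 3. Mecom was at 0.929, 1.36 and 0.0678 CPM in the deleted libraries, against 21.4 and 24.8 CPM in wild-type. The whole list of 10 stem and progenitor markers, Kit among them, summed to 1321, 865 and 169 CPM in deleted 2, 4 and 6 and to 745 and 747 CPM in wild-type 1 and 3, with 8 of 10 lowest in deleted 6 and none at 0 counts. Without deleted 6, edgeR called 4 of the 10 higher and 4 lower. The part of these markers in the values of Abcc8 and Cftr was not tested.

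The export pumps Abcc5 and Abcc1 were higher in all 3 deleted libraries. Abcc5, which exports cyclic nucleotides and nucleotide analogues, stood at 145, 162 and 365 CPM in deleted 2, 4 and 6, against 66.1 and 80.4 CPM in wild-type 1 and 3. Deleted 6 was 2.25 times the next library, and the means were 224 ± 122 CPM (SD, n = 3) in deleted and 73.3 ± 10.1 CPM (SD, n = 2) in wild-type libraries. Its log2 fold change was 1.61 ± 0.49 (SE; adjusted p = 0.275), and 1.08 ± 0.15 without deleted 6 (adjusted p = 0.00714). Abcc1, the multidrug resistance protein MRP1 that exports glutathione conjugates and leukotriene C4, stood at 206, 175 and 152 CPM in deleted 2, 4 and 6, against 112 and 130.0 CPM in wild-type 1 and 3. Here deleted 6 was the lowest of the deleted libraries, and the log2 fold change was 0.55 ± 0.21 (SE; adjusted p = 0.325), and 0.67 ± 0.15 without deleted 6 (adjusted p = 0.0350).

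The remaining ABCC members were not called. Abcc4 (MRP4), another exporter of cyclic nucleotides and the ABCC member with the highest mean level per kilobase of merged exons, stood at 112, 97.9 and 54.1 CPM in deleted 2, 4 and 6, against 111 and 130.2 CPM in wild-type 1 and 3 (log2 fold change -0.45 ± 0.34, adjusted p = 0.531). With the longest transcript as the length, Abcc5 took that place. Abcc3, an exporter of glucuronides, stood at 14.1, 26.8 and 49.7 CPM in the deleted libraries, against 11.5 and 20.8 CPM in wild-type. Abcc2, an organic anion exporter of the liver, stood at 2.58, 2.79 and 0.0226 CPM in deleted 2, 4 and 6, against 2.99 and 5.03 CPM in wild-type 1 and 3, so all deleted values were below wild-type, and deleted 6, with 1 count, was far below the rest. Abcc10 stood at 4.15, 4.89 and 4.77 CPM in the deleted libraries, against 5.86 and 8.57 CPM in wild-type, and those groups did not overlap (log2 fold change -0.65 ± 0.31, adjusted p = 0.391).

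Genes for conjugation and xenobiotic sensing, which supply or regulate the substrates of ABCC pumps, were a list of 17, of which 15 were tested. edgeR called none of them across all 5 libraries (2 higher and 1 lower by unadjusted p), and called 2 higher and 0 lower once deleted 6 was left out. Ltc4s, the synthase of leukotriene C4, stood at 2.73, 0.887 and 1.56 CPM in deleted 2, 4 and 6, against 0.313 and 0.162 CPM in wild-type 1 and 3 (2.96 without deleted 6, adjusted p = 0.0409). Ahr, the aryl hydrocarbon receptor, stood at 28.4, 23.7 and 63.8 CPM in the deleted libraries, against 12.5 and 11.5 CPM in wild-type (1.13 without deleted 6, adjusted p = 0.0119). Mast cells make leukotriene C4 and carry Kit, and the 11 mast cell and basophil markers summed to 11521, 5240 and 38.6 CPM in deleted 2, 4 and 6 and to 119 and 178 CPM in wild-type 1 and 3, with no marker at 0 counts in any library. The part of these markers in the values of Abcc1 and Ltc4s was not tested.

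ABCG genes had the lowest summed level per kilobase of the subfamilies in every library, and that level was highest in deleted 6. Abcg2, the breast cancer resistance protein that marks the side population of stem cells, stood at 11.6, 8.19 and 4.86 CPM in deleted 2, 4 and 6, against 3.64 and 4.00 CPM in wild-type 1 and 3. All 3 deleted libraries lay above wild-type, deleted 6 only narrowly, with a log2 fold change of 1.10 ± 0.45 (SE; adjusted p = 0.344), and 1.38 ± 0.27 without deleted 6 (adjusted p = 0.0224). Abcg1, which exports cholesterol to high-density lipoprotein in macrophages, stood at 22.7, 28.2 and 164 CPM in deleted 2, 4 and 6, against 12.9 and 13.7 CPM in wild-type 1 and 3. Deleted 6 was 5.82 times the next library, and the log2 fold change of 2.43 ± 1.02 (SE; adjusted p = 0.351) became 0.95 ± 0.19 without it (adjusted p = 0.0229). Abcg4, a close relative of Abcg1, was near the detection limit, at 0.333, 0.283 and 0.791 CPM in the deleted libraries, against 0.193 and 0.216 CPM in wild-type, and Abcg3 overlapped between the groups. Summed over the subfamily, the level was 4.88, 5.61 and 24.8 CPM per kb in deleted 2, 4 and 6 and 2.65 and 3.65 CPM per kb in wild-type 1 and 3.

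Abca1, the partner of Abcg1 that loads cholesterol onto apolipoprotein A1, was not above wild-type in deleted 2 and 4. Its level was 6.76, 21.2 and 55.9 CPM in deleted 2, 4 and 6, against 27.0 and 45.4 CPM in wild-type 1 and 3, so the deleted libraries spread on both sides of the wild-type ones. The log2 fold change was -0.37 ± 0.85 (SE; adjusted p = 0.824), and -1.36 ± 0.52 without deleted 6 (adjusted p = 0.141). The sign across all 5 libraries rests on single libraries, at 0.090 without deleted 2 and 0.052 without wild-type 3.

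Of 26 genes around lipid efflux and its nuclear receptor LXR, all were tested and none was called across all 5 libraries (6 higher and 1 lower by unadjusted p). Once deleted 6 was left out, edgeR called 4 higher (Cd36, Ch25h, Arl4c and Npc1) and 1 lower (Apoc2). On the log2 scale the median fold change of the list was 1.10 across all 5 libraries and 0.27 without deleted 6, and 18 of its 26 genes were highest in deleted 6, as were 36.2% of all tested genes. Apoc2, a lipoprotein component that activates lipoprotein lipase, stood at 0.543, 1.66 and 1.56 CPM in deleted 2, 4 and 6, against 27.2 and 29.3 CPM in wild-type 1 and 3, and Arl4c, a small GTPase and LXR target, at 6.76, 8.14 and 11.9 CPM in the deleted libraries, against 2.77 and 2.43 CPM in wild-type. Nr1h3, the macrophage form of LXR, stood at 4.17, 8.55 and 16.5 CPM in the deleted libraries, against 2.55 and 5.22 CPM in wild-type, and the groups overlapped.

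A second cluster of neighbours, on the minus strand of chromosome 11, held 3 members with higher values under the deleted label. Abca8b, Abca8a, Abca9, Abca6 and Abca5 lie between 109932190 and 110337716, a span of 406 kb, and encode related ABCA proteins linked to lipid handling, of which ABCA5 resides in lysosomes and endosomes. Abca5 stood at 10.5, 9.40 and 39.2 CPM in deleted 2, 4 and 6, against 1.62 and 1.801 CPM in wild-type 1 and 3. Every deleted library was far above both wild-type ones, with a log2 fold change of 3.52 ± 0.83 (SE; adjusted p = 0.208), of 2.55 ± 0.26 without deleted 6 (adjusted p = 0.00250) and of 2.47 in lane 4 alone (adjusted p = 0.0485). Abca6 had 56, 44 and 315 counts in deleted 2, 4 and 6 and 5 and 8 counts in wild-type 1 and 3, a log2 fold change of 4.46 ± 1.35 (adjusted p = 0.275), and 2.76 ± 0.52 without deleted 6 (adjusted p = 0.0202). It passed the filter through the deleted libraries alone.

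Abca8b stood at 1.79, 3.28 and 5.45 CPM in deleted 2, 4 and 6, against 1.04 and 0.504 CPM in wild-type 1 and 3. Its groups did not overlap, with a log2 fold change of 2.19 ± 0.68 (SE; adjusted p = 0.282), and 1.74 ± 0.52 without deleted 6 (adjusted p = 0.0775); DESeq2 called it across all 5 libraries (adjusted p = 0.0241). Its near copy is Abca8a, with which 1.42% of its windows are shared. Abca9, between Abca8a and Abca6, did not share the pattern, at 0.158, 1.81 and 29.9 CPM in deleted 2, 4 and 6, against 1.59 and 5.01 CPM in wild-type 1 and 3. Its high value was in deleted 6 alone, and its log2 fold change was 1.68 ± 1.98 (adjusted p = 0.671) across all 5 libraries and -1.74 ± 1.00 (adjusted p = 0.319) without deleted 6. Abca8a had at most 7 counts in a library and was not tested. Beyond Abca5 the tested neighbour Map2k6, a kinase of the p38 pathway, went the other way, at 2.26, 2.25 and 2.28 CPM in the deleted libraries, against 5.93 and 8.34 CPM in wild-type, and was called lower without deleted 6 (-1.65, adjusted p = 0.0167).

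Of the other ABCA genes, Abca13 was called lower without deleted 6 and several overlapped between groups. Abca13, the longest member, stood at 19.1, 20.4 and 0.520 CPM in deleted 2, 4 and 6, against 35.7 and 49.0 CPM in wild-type 1 and 3. All 3 deleted libraries lay below wild-type, and deleted 6 was far below the rest, so the log2 fold change of -1.67 ± 1.26 (SE; adjusted p = 0.533) was -1.09 ± 0.19 without it (adjusted p = 0.0165). Abca7, a phagocytosis and lipid transporter with the highest level per kilobase of the ABCA genes, stood at 131, 109.6 and 72.8 CPM in the deleted libraries, against 143 and 206 CPM in wild-type (log2 fold change -0.74 ± 0.32, adjusted p = 0.357). Abca2, an endolysosomal lipid transporter, stood at 172, 94.1 and 66.4 CPM in the deleted libraries, against 113 and 141 CPM in wild-type. Abca3, which fills the lamellar bodies of lung cells with surfactant lipid, stood at 47.8, 65.4 and 132 CPM in the deleted libraries, against 51.9 and 72.3 CPM in wild-type. Both overlapped, and 10.1% of Abca3's windows also occur in other genes, 8.16% in the antisense D330041H03Rik.

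Mitochondrial ABCB genes stayed within a narrow range. Abcb8, of the inner mitochondrial membrane, stood at 70.2, 59.2 and 57.3 CPM in deleted 2, 4 and 6, against 74.4 and 82.6 CPM in wild-type 1 and 3 (log2 fold change -0.34 ± 0.18, adjusted p = 0.419). Its groups did not overlap, by a small margin. Abcb10, which supports haem synthesis, had the highest level per kilobase of the ABCB genes and stood at 80.4, 60.3 and 45.3 CPM in the deleted libraries, against 62.9 and 75.5 CPM in wild-type (-0.16 ± 0.29, adjusted p = 0.781); with the longest transcript as the length, Abcb8 took its place. Abcb9, a lysosomal peptide transporter, stood at 2.82, 3.44 and 3.30 CPM in the deleted libraries, against 2.65 and 2.23 CPM in wild-type. Abcb6, which is tied to porphyrin transport, stood at 1.79, 1.26 and 1.67 CPM in the deleted libraries, against 1.52 and 1.62 CPM in wild-type, but 50.0% of its windows are shared with the overlapping Gm29253, so its counts are uncertain. Of the 19 haem and iron-sulfur genes tested, edgeR called none with or without deleted 6. Across all 5 libraries 0 were higher and 1 (Urod) lower by unadjusted p, and the median log2 fold change was -0.063. Urod, a decarboxylase of haem synthesis, stood at 49.6, 45.0 and 47.1 CPM in deleted 2, 4 and 6, against 65.5 and 71.2 CPM in wild-type 1 and 3. Hscb, an iron-sulfur cluster co-chaperone, stood at 16.9, 15.9 and 17.0 CPM in the deleted libraries, against 12.8 and 11.9 CPM in wild-type (adjusted p = 0.391).

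Peroxisomal ABCD genes differed mostly in deleted 6. Abcd2, an importer of long-chain acyl-CoA, stood at 90.8, 75.1 and 17.2 CPM in deleted 2, 4 and 6, against 90.8 and 112 CPM in wild-type 1 and 3, and Abcd3, which imports branched and dicarboxylic acids, at 72.1, 97.4 and 148 CPM, against 76.1 and 78.5 CPM. Abcd4, which moves cobalamin out of lysosomes, stood at 17.0, 20.3 and 73.5 CPM in the deleted libraries, against 21.2 and 20.6 CPM in wild-type. In deleted 6, Abcd2 was thus the lowest value of its gene, and Abcd3 and Abcd4 the highest of theirs. Without deleted 6 the log2 fold changes of these 3 genes lay between -0.28 and 0.15, with adjusted p from 0.338 to 0.650. Among 20 genes of peroxisomal fatty acid oxidation and assembly, none was called across all 5 libraries (2 higher and 2 lower by unadjusted p), and Scp2 and Slc27a2 were called lower without deleted 6. Scp2, which encodes a sterol carrier and a peroxisomal thiolase, stood at 74.7, 71.2 and 57.3 CPM in deleted 2, 4 and 6, against 111 and 132 CPM in wild-type 1 and 3. Slc27a2, an acyl-CoA synthetase for very long chains, stood at 0.0701, 0.0566 and 0.0226 CPM in the deleted libraries, against 0.313 and 0.612 CPM in wild-type. With 4, 3 and 1 counts in deleted 2, 4 and 6, it passed the filter through the wild-type libraries, which favoured a difference.

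The soluble members were the most abundant transcripts of the family. Per kilobase of merged exons, Abcf2 averaged 76.5 CPM per kb over all 5 libraries, Abce1 49.9 and Abcf1 33.7, while the median of these means over the 37 tested members was 3.91. Abce1 splits ribosomes into subunits after termination and stood at 317, 299 and 196 CPM in deleted 2, 4 and 6, against 335 and 351 CPM in wild-type 1 and 3 (log2 fold change -0.34 ± 0.27, adjusted p = 0.547). Abcf2 stood at 212, 179 and 123 CPM in the deleted libraries, against 222 and 247 CPM in wild-type (-0.45 ± 0.28, adjusted p = 0.467). All deleted values of both genes were below wild-type, and lowest in deleted 6. Abcf1, which binds the initiation factor eIF2, stood at 157, 127 and 133 CPM in the deleted libraries, against 156 and 169.6 CPM in wild-type (-0.23 ± 0.18, adjusted p = 0.556), and Abcf3 at 80.6, 68.3 and 73.8 CPM, against 69.3 and 83.7 CPM; both overlapped. Of 14 genes of ribosome recycling and eIF2, none was called with or without deleted 6, none had an unadjusted p under 0.05 across all 5 libraries, and 10 were lowest in deleted 6, as were 38.2% of all tested genes. Pelo, which recruits Abce1 to stalled ribosomes, stood at 17.1, 14.0 and 9.57 CPM in deleted 2, 4 and 6, against 21.5 and 20.7 CPM in wild-type 1 and 3, and Eif1, a start codon factor, at 107, 119 and 129 CPM, against 95.1 and 80.5 CPM.

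**Figure D4:**
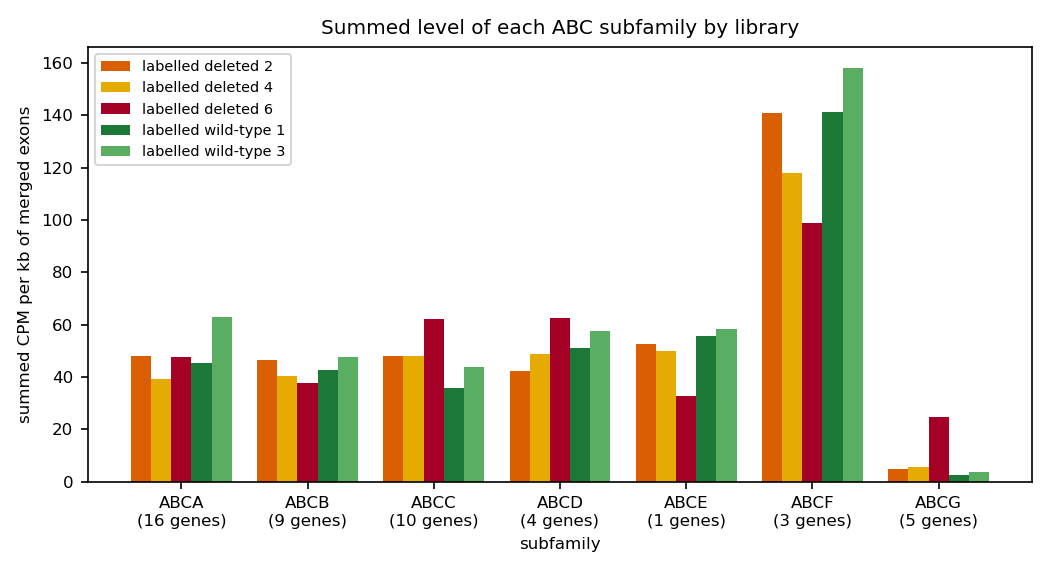
Bars give the summed level of all members of each ABC subfamily (CPM per kb of merged exons) in each library. The ABCF genes have the tallest bars, at 98.8 to 141 CPM per kb in the deleted and 141 to 158 in the wild-type libraries. The ABCG bar of deleted 6, at 24.8, is over those of the other libraries, at 2.65 to 5.61, and Abcg1 alone makes up 22.5 of it.

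Summed over all 48 members, the level was 383, 349 and 366 CPM per kb in deleted 2, 4 and 6 and 375 and 432 CPM per kb in wild-type 1 and 3. The family as a whole thus overlapped between the labels, and its make-up differed most in deleted 6. ABCF genes made up 27.0% of the sum in deleted 6, against 33.7% to 37.7% in the other 4 libraries, and ABCG genes 6.77%, against 0.709% to 1.61%. Abcg1 alone was at 22.5 of the 24.8 CPM per kb of the ABCG genes in deleted 6.

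Deleted 6 set the extremes of the family more often at the high end. It held the highest value of 18 of the 37 tested members (48.6%) and the lowest of 11 (29.7%), where all tested genes gave 36.2% and 38.2%. It was at least 2 times the highest other library in 8 members (21.6%, all genes 8.77%), namely Abca5, Abca6, Abca9, Abca17, Abcc5, Abcd4, Abcg1 and Abcg4, and at most 0.5 times the lowest other in Abca13, Abcc2 and Abcd2 (8.11%, all genes 15.1%). Beside these values, the 14 monocyte and macrophage markers summed to 9317, 19396 and 74064 CPM in deleted 2, 4 and 6 and to 12426 and 12021 CPM in wild-type 1 and 3, a sum that Lyz2 dominated at 68117 CPM in deleted 6. Only 6 of the 14 were highest in deleted 6 and 4 were lowest there, and none was at 0 counts in it. The 13 neutrophil markers came to 1402 CPM in deleted 6 and elsewhere to between 15153 and 20858 CPM, and the 10 proliferation genes to 96.1 CPM, against 1531 to 2479 CPM. Deleted 6 was also the only library of its sequencing lane (5), and wild-type 1 was likewise the only library of lane 3. The part of these markers, of sex, of the lane and of the library itself in the ABC values of deleted 6 was not tested.

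The 11 members that did not pass the filter had few counts. Abca4, Abca8a, Abca12, Abca14, Abca15, Abca16, Abcb11, Abcc6, Abcc9, Abcc12 and Abcg5 had 0 to 11 counts in a library and 3 to 23 counts in sum. The highest sum was in Abca12, a lipid transporter of the skin, at 0, 9 and 0 counts in deleted 2, 4 and 6 and 7 and 7 in wild-type 1 and 3, and the highest single value in Abca4, the retinal transporter, at 0, 2 and 1 counts in the deleted and 6 and 11 in the wild-type libraries. Among them are transporters known from liver and gut, such as Abcb11, the bile salt export pump, and Abcg5, a sterol exporter. At this depth 3 counts are worth 0.0526, 0.0566 and 0.0678 CPM in deleted 2, 4 and 6. In wild-type 1 and 3, 1 count is worth 0.0241 and 0.0180 CPM. These values cover counting error only.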

How the data were processed

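RNA from 5 samples was made into libraries with SMART-Seq v4 and Nextera XT, per the labels' protocols, and neither kit marks strand. The submitters' processing notes name STAR, the mm10 build, bcl2fastq 1.8.4 and DESeq2 1.12.4; how genes were annotated and reads counted is not stated there. The authors deposited whole-number counts per gene for each library and a normalized signal, which equals those counts over 1 size factor per library (checked over 27526 genes, largest difference 3.84e-09 of a count); the latter defined the members. Rows that name no gene, 23.7% to 30.1% of a library's table, stayed out, and 13.0% to 15.1% were multiply aligned reads.

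Counts were filtered with filterByExpr, scaled by TMM and tested with edgeR's quasi-likelihood test over 16120 genes (edgeR 4.0.16, limma 3.58.1, DESeq2 1.42.0, R 4.3.3), with Benjamini-Hochberg adjustment and 0.05 as the threshold. CPM use TMM-scaled library sizes. The SE is the log2 fold change over the square root of F. With 2 against 3 libraries an exact permutation test cannot give p under 0.1, so none was used. Levels per kb and coordinates use GENCODE M21 (GRCm38, the build of mm10). The 50-base windows follow the read length. Named were members with an unadjusted p under 0.05, those called without deleted 6, the top of each subfamily per kb and 9 fixed members, 19 in all, plus the 2 genes with the smallest p of each process list. Cell type marker lists are given as sums and counts; other genes were named after their values were seen. The members and lists were chosen with earlier results of these data known. A few genes are not reported here by name; the counts and sums include them.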

Additional observations from a re-analysis of the deposited data

How the results depend on the processing

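No paired analysis was possible because the labels give the groups no shared replicate numbers. The count of members called higher and lower was 0 and 0 with edgeR across all 5 libraries, also with DESeq2 size factors, the stricter filter, limma on log2 of the deposited values plus 1, and without any single library other than deleted 6. It was 5 and 1 with DESeq2, 7 and 1 with limma-voom, 1 and 1 with no filter on low counts (Abcb1a and Abcc8), 2 and 1 in lane 4, and 0 to 7 higher and 0 to 2 lower with single libraries left out. The family's median log2 fold change of 0.041 ran from -0.075 to 0.438 with single libraries left out, highest without deleted 2, and from -0.14 to 0.12 under the other settings. Genes of the accompanying process lists that were called, 0 across all 5 libraries, numbered 9 with DESeq2, 18 with limma-voom, 2 with no filter, 1 in lane 4, and 0 to 11 with single libraries left out. Of the 19 named members, the log2 fold change turned sign for Abca1 (0.090 without deleted 2, 0.052 without wild-type 3, range -1.36 to 0.090) and Abcb10 (0.036 without deleted 6, range -0.39 to 0.036), neither of them called. Abcg1, Abcc5, Abca6 and Abca13 were called without deleted 6, and Abcg1 and Abca13 under no other setting; with fewer libraries the spread is estimated from fewer samples, and the cause was not tested. The middle of the 5 library medians of member levels was 3.04 CPM per kb of merged exons and 4.43 with the longest transcript as length, a move within the SD of 1.47 between the library medians.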

Other observations

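Tap1 and Tap2, ABC transporters of the ABCB subfamily by sequence that carry peptides to MHC class I, fall outside the naming rule. Tap2 stood at 102, 86.4 and 89.8 CPM in deleted 2, 4 and 6, against 127 and 175 CPM in wild-type 1 and 3 (log2 fold change -0.70 ± 0.21, SE; edgeR adjusted p = 0.274, and 0.0670 without deleted 6). Tap1 stood at 82.2, 83.2 and 123 CPM in the deleted libraries, against 104 and 140.3 CPM in wild-type, and its groups overlapped. Kcnj8, the other potassium channel partner of sulfonylurea receptors, had at most 2 counts in any library.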
